A study of Homo sapiens with 12 samples.

Results

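The 8 genes LAMA3, LAMB3, ITGA6, ITGB4, COL17A1, PLEC, DST and CD151 encode parts of the hemidesmosome and of laminin-332. They were selected by name, their transcript rows were summed to genes with GENCODE symbols, and they are 8 of 39099 genes with a matched row and 8 of the 14767 genes that passed the low-value filter. All 8 passed that filter. RNA had been measured in 12 libraries of 2 established human pancreatic cancer cell lines, AsPC-1 and PANC-1 (ASPC1 and PANC1 in the labels). Each line had a mock control, a TAp63 overexpression group and a deltaNp63 overexpression group, which gives 6 groups of 2 libraries labelled as biological replicates. TAp63 and deltaNp63 are forms of the transcription factor p63 that differ at the amino terminus, the first carrying the full transactivation domain, and p63 is a known regulator of adhesion genes in basal epithelium. The vector, the time after its introduction, and whether clones or pools of cells were used are not given in the sources used here.

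Hemidesmosomes are the junctions that tie the keratin filaments of an epithelial cell to the basement membrane. In the membrane, the integrin alpha 6 beta 4 (ITGA6 and ITGB4) binds laminin-332, a secreted trimer that includes the alpha 3 and beta 3 chains (LAMA3 and LAMB3), beside the transmembrane collagen XVII (COL17A1) and the tetraspanin CD151. Inside the cell, plectin (PLEC) and the epithelial form of dystonin (DST, also called BPAG1e) link the integrin and the collagen to keratins. Laminin-332 and alpha 6 beta 4 are also well known on carcinoma cells, including those of the pancreas.

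The levels below are in TPM, a relative abundance that is corrected for transcript length and scaled to the same sum in every library. The number of reads behind a TPM value cannot be recovered, so the depth of these libraries is unknown. The number of genes with at least 1 TPM was 12212 to 13161 per library. TP63 itself was between 0.0245 and 1.10 TPM in the 4 mock libraries, between 102 and 342 TPM in the 4 TAp63 libraries and between 245 and 1187 TPM in the 4 deltaNp63 libraries, in the direction of the labels. Of 6 epithelial markers, EPCAM was 1256 to 1409.7 TPM in AsPC-1 and 42.6 to 49.5 TPM in PANC-1, and CDH1 (E-cadherin) was 81.8 to 123 TPM against 2.37 to 3.74 TPM. The keratins KRT8, KRT18 and KRT19 were also higher in all 6 AsPC-1 libraries, whereas the duct keratin KRT7 went the other way, with 9.24 to 13.1 TPM in AsPC-1 and 13.7 to 17.5 TPM in PANC-1. The mesenchymal markers VIM (2000.5 to 2361 against 4291 to 4943 TPM) and CDH2 (at most 0.0219 against 19.5 to 22.3 TPM) were higher in PANC-1. The basal keratins KRT5 and KRT14, the usual partners of hemidesmosomes in skin, were at most 0.483 TPM in every library, so neither line carried the keratin pair of basal cells.

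Promoter sequences of the laminin chain genes, of COL17A1 and of the epithelial start of DST are shown because the first 3 genes carry the largest differences between the lines and the last start gives the hemidesmosomal form of dystonin. They are the 250 bases before the annotated start, 5′ to 3′ on the gene's strand, from RefSeq (GRCh38.p14). 5 of the 8 genes matched the promoter table, and ITGB4, PLEC and CD151 did not. Capitals mark matches, on either strand, to the AP-1 motif TGANTCA or to the p53-family half-site. In LAMA3 (chr18:23872770-23873019, + strand) there were 2 AP-1 matches, 125 and 69 bases before the start of the short form. In COL17A1 (chr10:104085881-104086130, − strand) there was 1 p53-family half-site, 55 bases before the start. The windows of LAMB3 (chr1:209652426-209652675, − strand) and of DST (chr6:56642890-56643139, − strand) held neither. The table has further windows for LAMB3, DST and ITGA6, and of these 1 LAMB3 window, at chr1:209651375-209651624, held an AP-1 match, 67 bases before its start. Among 35116 promoter windows of the same length, 6.57% held the AP-1 motif and 5.57% held the half-site, and a match here describes letters and not binding.
LAMA3 short form: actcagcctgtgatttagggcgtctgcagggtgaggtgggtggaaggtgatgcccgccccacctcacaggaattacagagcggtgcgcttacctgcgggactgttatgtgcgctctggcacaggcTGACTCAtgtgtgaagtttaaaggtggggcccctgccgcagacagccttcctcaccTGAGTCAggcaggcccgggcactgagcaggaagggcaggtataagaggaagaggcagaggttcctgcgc
LAMB3: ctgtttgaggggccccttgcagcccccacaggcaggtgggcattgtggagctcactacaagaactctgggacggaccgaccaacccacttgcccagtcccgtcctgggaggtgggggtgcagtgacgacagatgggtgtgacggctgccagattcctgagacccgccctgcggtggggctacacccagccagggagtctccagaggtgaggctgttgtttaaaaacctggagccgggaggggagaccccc
COL17A1: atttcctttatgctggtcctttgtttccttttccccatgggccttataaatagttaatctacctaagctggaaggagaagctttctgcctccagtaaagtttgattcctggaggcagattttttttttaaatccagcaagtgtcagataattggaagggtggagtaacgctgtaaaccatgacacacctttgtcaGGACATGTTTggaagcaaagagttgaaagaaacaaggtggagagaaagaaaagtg
DST epithelial start: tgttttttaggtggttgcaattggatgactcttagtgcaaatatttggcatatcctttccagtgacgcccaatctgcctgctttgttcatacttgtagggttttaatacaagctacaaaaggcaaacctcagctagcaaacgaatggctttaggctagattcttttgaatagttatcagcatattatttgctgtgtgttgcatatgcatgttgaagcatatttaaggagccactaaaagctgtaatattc

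Across the mock groups, PANC-1 had far less RNA than AsPC-1 for the laminin-332 chains LAMA3 and LAMB3, for collagen XVII and for integrin beta 4, moderately less for ITGA6 and PLEC, and more for DST and CD151. All 8 genes passed the limma test at an adjusted p of 0.05, 6 lower and 2 higher in PANC-1. The background was high, since 72.5% of all tested genes passed, 27.9% of them lower and 44.6% higher in PANC-1, so passing alone says little about these 8. The median difference, PANC-1 minus AsPC-1 in log2(TPM + 1), was −4.01 over the 8 genes and 0.24 over all 14767 genes. The difference of LAMB3 was matched or exceeded in its direction by 0.0542% of the tested genes, that of LAMA3 by 0.196%, that of COL17A1 by 0.271% and that of ITGB4 by 0.698%. For ITGA6 this share was 5.33% and for PLEC 8.55%, while for CD151 it was 28.6% and for DST 41.9%. The ranges of the 6 AsPC-1 and the 6 PANC-1 libraries did not overlap for any of the 8 genes, as for 70.2% of all tested genes. For 6 of the 8 genes AsPC-1 lay above (25.3% of all tested genes) and for 2 PANC-1 did (45.0%). The line and how it was grown cannot be told apart in these libraries. The EPCAM, CDH1, VIM and CDH2 levels above moved with the same groups, and their part in the differences was not tested. In bulk RNA, fewer cells making a transcript and less RNA per cell cannot be told apart.

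**Figure D1:**
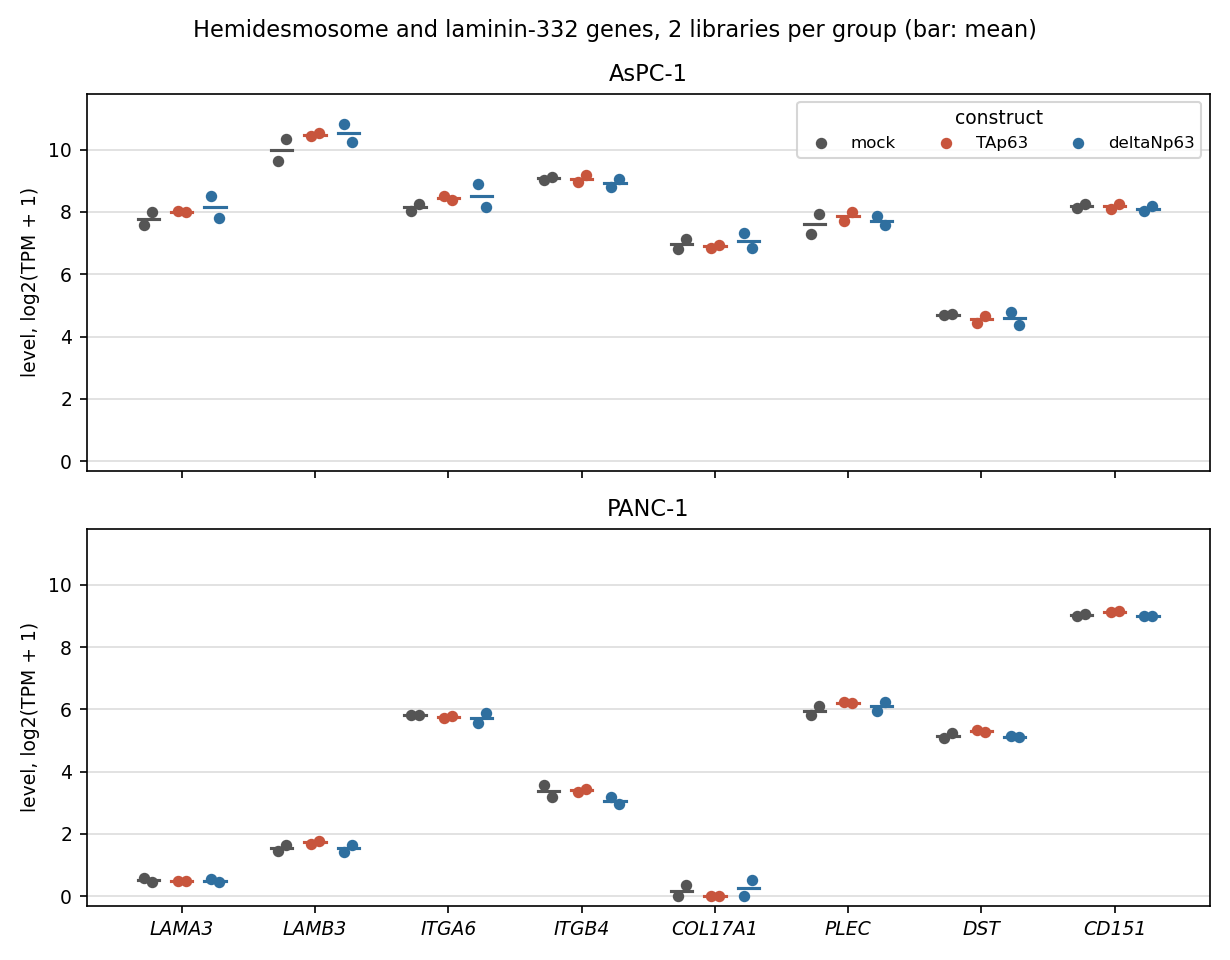
Level of each gene in log2(TPM + 1) (vertical axis) in AsPC-1 (upper panel) and PANC-1 (lower panel); each point is 1 library, the short bar is the mean of 2 libraries, and colours give mock, TAp63 and deltaNp63. LAMA3, LAMB3, ITGB4 and COL17A1 lie far lower in the PANC-1 panel, and the 3 constructs lie closer together within a line than the lines do for these 4 genes.

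LAMB3 (ENSG00000196878, chr1:209614870-209652425, − strand) encodes the beta 3 chain, which is found in laminin-332 and few other laminins. In AsPC-1 it was 787 and 1289.7 TPM in the mock libraries, 1377 and 1476 TPM with TAp63, and 1820.0 and 1206 TPM with deltaNp63. In PANC-1 it was 1.75 and 2.17 TPM in the mock libraries, 2.23 and 2.40 TPM with TAp63, and 1.71 and 2.13 TPM with deltaNp63. The mock means differed 531-fold in TPM, and by −8.42 (SE 0.23) in log2(TPM + 1) with an adjusted p of 5.1e-10 (limma). Differences on the log2(TPM + 1) scale understate the change of genes near 0 TPM. Leaving out COL17A1, whose rows are too incomplete to rank, LAMB3 was the most abundant of the genes in AsPC-1 and the sixth in PANC-1.

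LAMA3 (ENSG00000053747, chr18:23689453-23956222, + strand) encodes the alpha 3 chain, whose carboxy-terminal globular domains are bound by the integrins. Its AsPC-1 levels were 189 and 253 TPM in the mock libraries, 258 and 255 TPM with TAp63, and 367 and 222 TPM with deltaNp63. All 6 PANC-1 libraries held between 0.362 and 0.509 TPM. The mock difference was −7.25 (SE 0.21; adjusted p 7.1e-10, limma), or 502-fold between the mean TPM values.

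LAMB3 exceeded LAMA3 by 4.18 to 5.79 times in the 6 AsPC-1 libraries and by 3.43 to 5.87 times in the 6 PANC-1 libraries. The ranges of this ratio overlapped, although both genes were far lower in PANC-1.

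**Figure D2:**
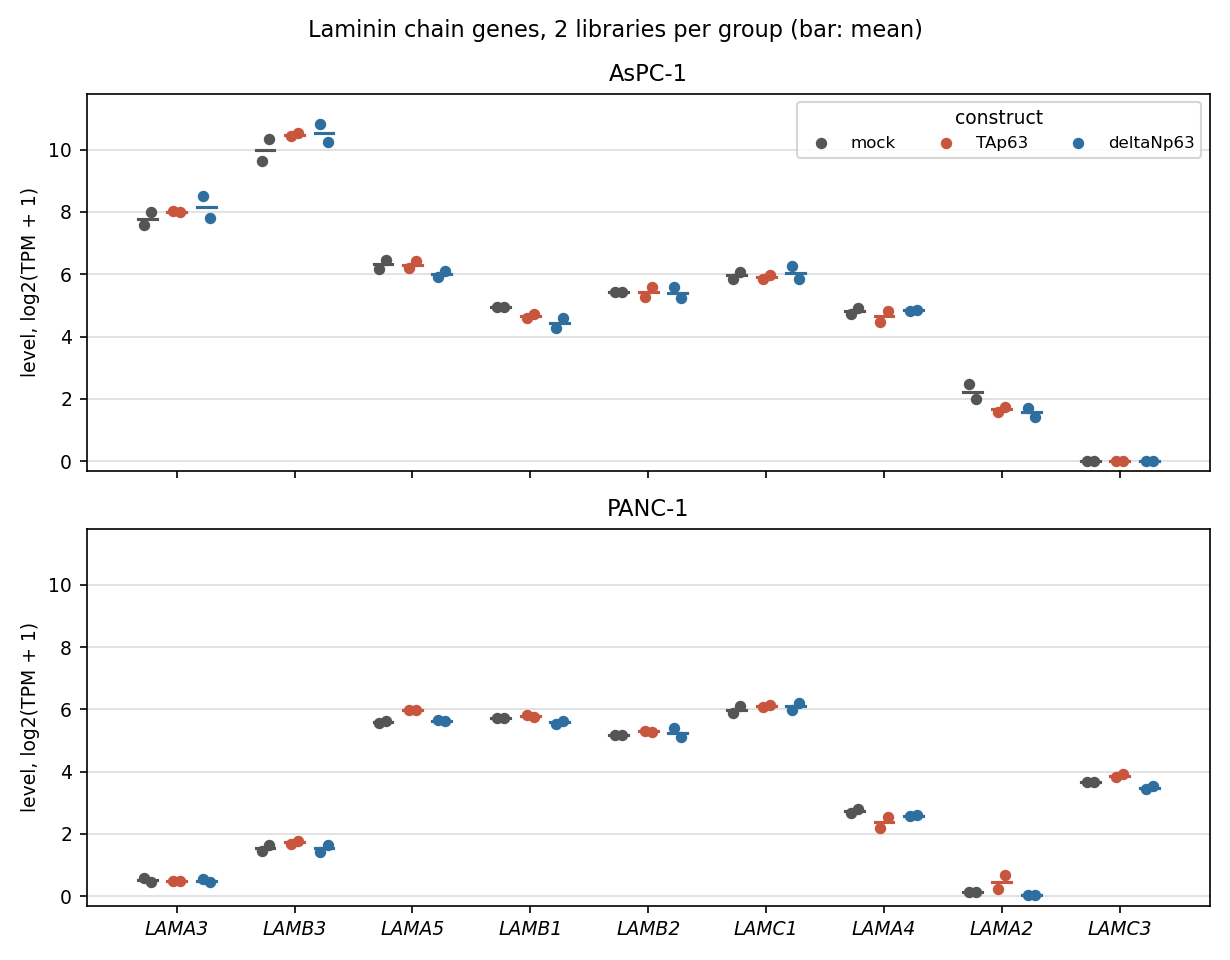
Level of LAMA3, LAMB3 and 7 other laminin chain genes in log2(TPM + 1) (vertical axis), in AsPC-1 (upper panel) and PANC-1 (lower panel); points are libraries, bars are means of 2 libraries and colours give the construct. In AsPC-1 LAMA3 and LAMB3 lie above the other chains shown, and in PANC-1 they are at most 2.40 TPM while LAMC1 (57.9 to 73.3 TPM) and LAMB1 (45.2 to 55.9 TPM) are high and LAMC3 is present at 9.96 to 14.3 TPM.

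ITGB4 (ENSG00000132470, chr17:75721328-75757818, + strand) encodes integrin beta 4, whose long cytoplasmic tail binds plectin and which pairs with alpha 6 alone. It was 525 and 556 TPM in the AsPC-1 mock libraries, 492 and 580.3 TPM with TAp63, and 447 and 532 TPM with deltaNp63. In PANC-1 it was 10.9 and 8.13 TPM in mock, 9.24 and 9.82 TPM with TAp63, and 8.11 and 6.78 TPM with deltaNp63. The mock difference was −5.70 (SE 0.15; adjusted p 3.4e-10, limma), or 56.7-fold in TPM. ITGB4 overlaps GALK1 on the opposite strand, and whether strand was used in the quantification is not given in the sources used here.

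ITGA6 (ENSG00000091409, chr2:172427354-172506459, + strand) encodes integrin alpha 6, which can also pair with beta 1. Its AsPC-1 levels were 261 and 305 TPM in mock, 367 and 333 TPM with TAp63, and 472 and 285 TPM with deltaNp63. In PANC-1 they were 55.3 and 55.4 TPM in mock, 52.1 and 53.8 TPM with TAp63, and 46.0 and 57.8 TPM with deltaNp63. The mock difference of −2.33 (SE 0.20; adjusted p 2.5e-06, limma) was 5.11-fold in TPM, smaller than that of its partner. The ITGA6 to ITGB4 ratio was accordingly 0.498 to 1.06 in AsPC-1 and 5.05 to 8.53 in PANC-1. ITGA3, which pairs with beta 1 to form the other main laminin-332 receptor, was 171 to 239 TPM in AsPC-1 and 510.1 to 574 TPM in PANC-1.

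CD151 (ENSG00000177697, chr11:832887-839831, + strand) encodes a tetraspanin that associates with the laminin-binding integrins alpha 3 beta 1, alpha 6 beta 1 and alpha 6 beta 4. It was higher in PANC-1, with 506.5 to 567 TPM in PANC-1 and 258 to 306 TPM in AsPC-1. The mock difference was 0.83 (SE 0.09; adjusted p 1.0e-05, limma), or 1.78-fold in TPM. CD151 was the most abundant of the 7 genes ranked in every PANC-1 library. CD151 overlaps POLR2L on the opposite strand.

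COL17A1 (ENSG00000065618, chr10:104031286-104085880, − strand) encodes collagen XVII, also known as BP180, which anchors the cell to laminin-332. The AsPC-1 libraries held 111 and 141 TPM in mock, 114 and 122 TPM with TAp63, and 160.0 and 113 TPM with deltaNp63. Of the PANC-1 libraries, 3 listed the gene at 0 and 1 at 0.00026 TPM, and the other two held 0.289 and 0.431 TPM. The mock difference was −6.79 (SE 0.22; adjusted p 1.5e-09, limma), and no fold is given because PANC-1 was listed at 0. Only 3 of the 10 annotated COL17A1 transcripts matched a row, of 537 to 626 bases where the longest annotated transcript has 5612, and 86.1% of its summed TPM fell on the 537-base COL17A1-203. The level of COL17A1 is therefore not compared with those of other genes.

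PLEC (ENSG00000178209, chr8:143915153-143976734, − strand) encodes plectin, the large linker from integrin beta 4 to keratin, which is also made in cells without hemidesmosomes. It was 155 and 241 TPM in the AsPC-1 mock libraries, 209 and 256 TPM with TAp63, and 231 and 191 TPM with deltaNp63, against 55.1 to 74.5 TPM in PANC-1. The mock difference was −1.65 (SE 0.20; adjusted p 3.7e-05, limma), or 3.23-fold in TPM.

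DST (ENSG00000151914, chr6:56457987-56954830, − strand) encodes dystonin, whose isoforms serve hemidesmosomes, neurons and muscle. It was 24.8 and 25.2 TPM in the AsPC-1 mock libraries and 19.8 to 26.7 TPM with the constructs, and 32.5 to 39.1 TPM in PANC-1. The mock difference of 0.45 (SE 0.14) had an adjusted p of 0.013 (limma) and was 1.38-fold in TPM. It did not pass the test under 5 of 20 alternative settings, where its adjusted p ranged up to 0.12; with each library's median centred it was 0.28, since the library medians were 0.17 higher in the PANC-1 mock group.

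Ordered by the median TPM over its 6 libraries, AsPC-1 had LAMB3 (1333), ITGB4 (528), ITGA6 (319), CD151 (285), LAMA3 (254), PLEC (220.1) and DST (24.6). LAMB3 and DST stood apart from their neighbours in that order, whereas the ranges of ITGB4 and ITGA6, of ITGA6 and CD151, of CD151 and LAMA3 and of LAMA3 and PLEC overlapped. PANC-1 had CD151 (524), PLEC (69.8), ITGA6 (54.5), DST (35.4), ITGB4 (8.68), LAMB3 (2.15) and LAMA3 (0.403). There only the ranges of PLEC and ITGA6 overlapped.

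No difference of the 8 genes between a p63 form and mock passed the test in either line, and the largest estimates were for the laminin chains and ITGA6 in AsPC-1. With limma, 0 of 8 genes passed at an adjusted p of 0.05 for TAp63 against mock in AsPC-1, where 0.637% of all tested genes passed, and 0 of 8 for deltaNp63 against mock, where 7.14% passed. In PANC-1 the counts were 0 of 8 against a background of 0.00677% for TAp63 and 0 of 8 against 0.0406% for deltaNp63. At an unadjusted p of 0.05, 1 gene (LAMB3 with deltaNp63 in AsPC-1) passed and 0 did in the other 3 comparisons. Of all 14767 tested genes, 2233 passed at that level for TAp63 and 4383 for deltaNp63 in AsPC-1. In PANC-1 503 and 345 did. The median difference over the 8 genes was 0.11 for TAp63 and 0.11 for deltaNp63 in AsPC-1, with −0.08 and −0.12 over all tested genes. In PANC-1 it was 0.06 and −0.02, with 0 and −0.02 over all tested genes. All construct comparisons of a line share its 2 mock libraries, so their values are set side by side here and not combined.

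**Figure D3:**
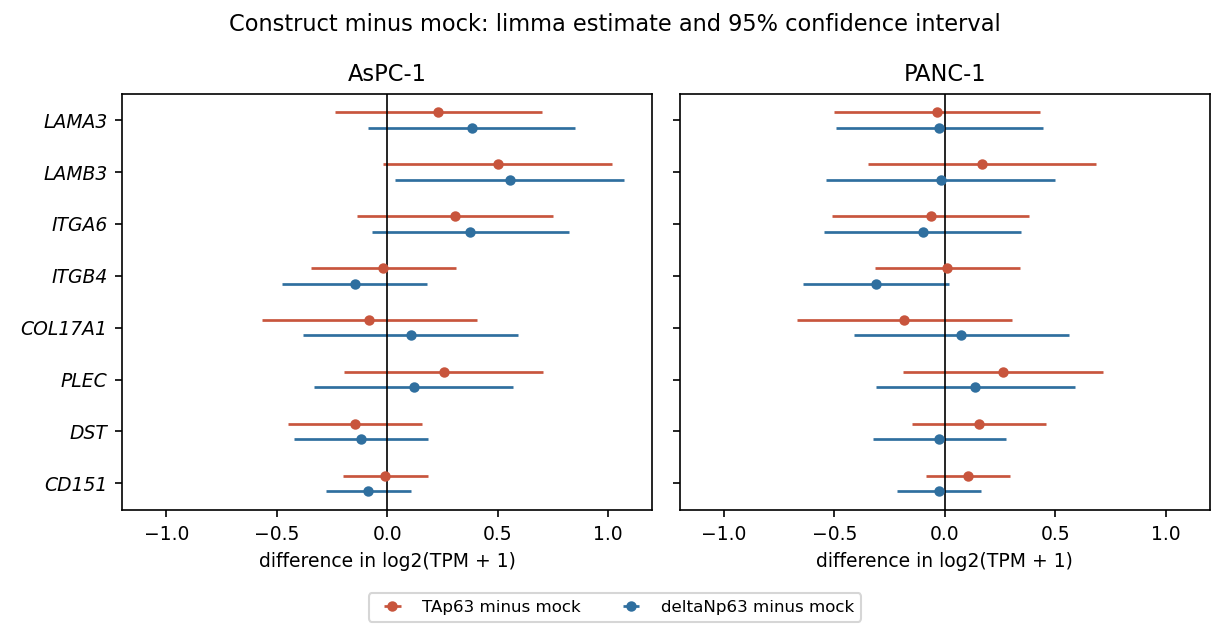
Difference from mock in log2(TPM + 1) (horizontal axis) for each gene in AsPC-1 (left panel) and PANC-1 (right panel). Points are limma estimates from 2 against 2 libraries. Lines are 95% confidence intervals that are not adjusted for multiple tests, with the spread pooled over all 12 libraries of both lines. The intervals span 0 for every gene except LAMB3 with deltaNp63 in AsPC-1 (0.04 to 1.07), where pooling with PANC-1 may make the interval too narrow.

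In AsPC-1, LAMB3 was 0.50 (SE 0.23) higher with TAp63 than in mock, with an adjusted p of 0.34 (limma), and 0.56 (SE 0.23) higher with deltaNp63, with an adjusted p of 0.15 (limma). The 95% intervals were −0.02 to 1.02 and 0.04 to 1.07. Their spread is pooled with PANC-1, where LAMB3 was 1.71 to 2.40 TPM and varied less in log2(TPM + 1). These 2 intervals may therefore be too narrow for AsPC-1. The other values for TAp63 and deltaNp63 were 0.23 and 0.38 for LAMA3, 0.31 and 0.38 for ITGA6, 0.26 and 0.12 for PLEC, and −0.08 and 0.11 for COL17A1. ITGB4 (−0.02 and −0.15), DST (−0.15 and −0.12) and CD151 (−0.01 and −0.09) were at or below mock. Both TAp63 libraries lay above both mock libraries for LAMA3, LAMB3 and ITGA6, as for 11.2% of all tested genes, and both lay below for DST, as for 35.4%. With deltaNp63, both libraries lay above mock for 0 of the 8 genes (background 11.1%) and below mock for 0 (background 41.1%). For TAp63 against deltaNp63, 0 of 8 genes passed (limma) against a background of 0.0203%, with values from −0.19 for COL17A1 to 0.14 for PLEC. At an unadjusted p of 0.05, 0 of 8 passed in this comparison, beside 1170 of all 14767 genes.

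The deltaNp63 comparison in AsPC-1 depended on which of its 2 deltaNp63 libraries was kept. Without deltaNp63 replicate 1, LAMA3 was 0.02 and ITGA6 0.01 above mock, and the COL17A1 difference was −0.14. LAMB3 was at least 0.20 above mock under every alternative run. Without deltaNp63 replicate 2, LAMA3 was 0.75 above mock (adjusted p 0.011), LAMB3 0.85 (adjusted p 0.029) and ITGA6 0.74 (adjusted p 0.0058), and 3 of the 8 genes passed (limma, with the lone library assumed to vary like the other groups). In that fit 27.5% of all tested genes passed, so the members' share was near the background. Over all 21 alternatives, the adjusted p (limma) ranged from 0.011 to 0.99 for LAMA3, from 0.029 to 0.65 for LAMB3 and from 0.0058 to 1.00 for ITGA6. The 2 deltaNp63 libraries disagreed on these genes: replicate 1 was the highest of the 6 AsPC-1 libraries for LAMA3, LAMB3, ITGA6, COL17A1 and DST, and replicate 2 was the fifth for LAMA3, LAMB3, ITGA6, COL17A1 and PLEC and the lowest for DST. Mock replicate 1 was the lowest library for LAMA3, LAMB3, ITGA6, COL17A1 and PLEC. The library with the most LAMB3 also had the least ITGB4 and CD151 of the line and a lower KRT8, with 2034 TPM against 3177 to 3738 TPM in the other 5 AsPC-1 libraries. KRT18 was 1682 TPM there against 2469 to 2798 TPM. The part of this library's other differences in the LAMA3, LAMB3 and ITGA6 values was not tested.

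**Figure D4:**
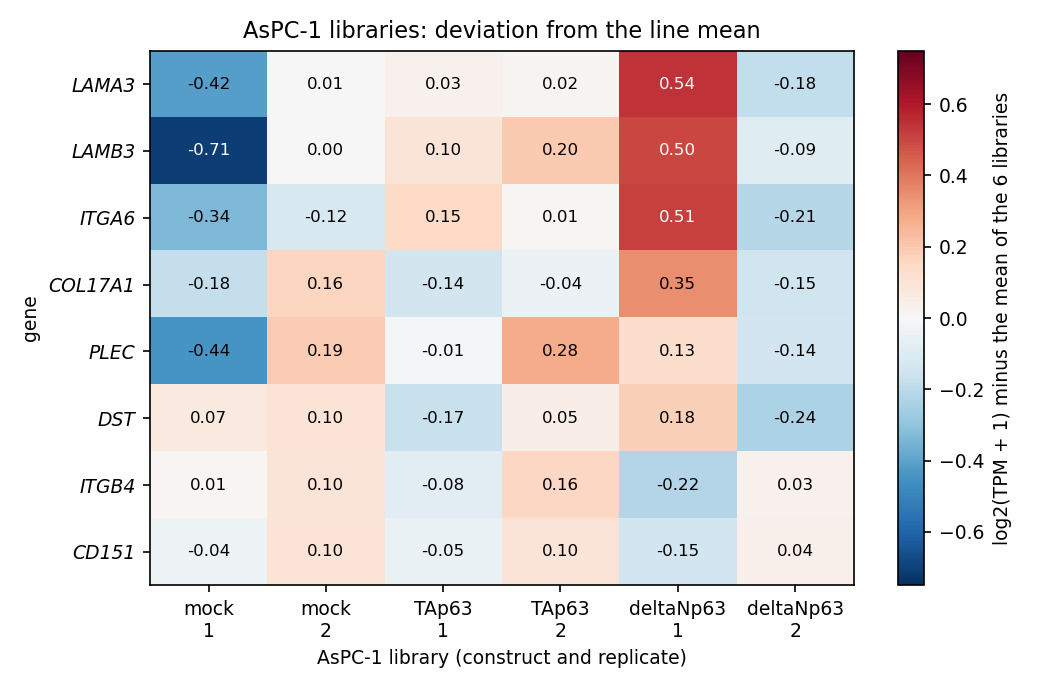
Deviation of each AsPC-1 library (columns) from the mean of the 6 libraries of the line, in log2(TPM + 1), for the 8 genes (rows); red is above and blue below the mean. Mock replicate 1 is low (−0.71 for LAMB3) and deltaNp63 replicate 1 high (0.54 for LAMA3) in the laminin chains, while ITGB4 (−0.22) and CD151 (−0.15) are low in the latter.

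Among the 6 AsPC-1 libraries, LAMA3, LAMB3, ITGA6 and COL17A1 shared their lowest library (mock replicate 1) and their highest (deltaNp63 replicate 1). Pearson's r over the 6 libraries was 0.93 for LAMA3 with LAMB3, 0.96 for LAMA3 with ITGA6 and 0.86 for LAMA3 with COL17A1. PLEC had the same lowest library and an r of 0.84 with LAMB3 and 0.32 with CD151, and DST had an r of 0.40 with LAMA3. ITGB4 and CD151 had an r of 0.96 with each other of −0.61 and −0.45 with LAMA3, and of −0.36 and −0.17 with LAMB3. These coefficients describe 6 libraries that include the group differences and share the scaling of TPM to a constant sum, and no test was made.

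In PANC-1 every one of the 8 genes differed from mock by less than 0.32 in log2(TPM + 1). LAMA3 (at most 0.509 TPM) and COL17A1 (at most 0.431 TPM) are so low there that this scale keeps any difference small. Over the alternative settings the COL17A1 difference with TAp63 ran from −0.98 to 0.0002. The largest difference was −0.31 (SE 0.15; adjusted p 1.00, limma) for ITGB4 with deltaNp63, where 10.9 and 8.13 TPM in mock stood beside 8.11 and 6.78 TPM. This was the 1 gene whose deltaNp63 libraries lay below mock (background 16.3%), and 0 lay above (background 10.8%). PLEC was 0.26 (SE 0.20) above mock with TAp63 and DST 0.16 (SE 0.14). For TAp63, LAMB3, PLEC, DST and CD151 lay above mock in both libraries (background 22.0%), and ITGA6 lay below (background 20.4%). TAp63 against deltaNp63 gave 0 of 8 genes (limma, background 0.0271%), with ITGB4 at 0.32 (SE 0.15) the farthest. At an unadjusted p of 0.05 this comparison also gave 0 of 8, beside 437 of all 14767 genes. LAMA3 and LAMB3 stayed below 0.51 and 2.41 TPM with both constructs, although TP63 reached 324 to 1187 TPM.

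The construct effect itself was compared between the lines by the interaction term. For TAp63, 0 of 8 genes passed (limma, background 0.0745%), and for deltaNp63 0 of 8 passed (background 0.582%). At an unadjusted p of 0.05, 0 of 8 passed for either form, beside 1540 and 2431 of all 14767 genes. The interaction estimates for deltaNp63, PANC-1 minus AsPC-1, were −0.57 (SE 0.33) for LAMB3, −0.48 (SE 0.28) for ITGA6 and −0.41 (SE 0.30) for LAMA3. Without AsPC-1 deltaNp63 replicate 2, those of LAMA3 (−0.77, adjusted p 0.041) and ITGA6 (−0.84, adjusted p 0.019) passed the limma test, 2 of 8 where 14.9% of all tested genes passed. The adjusted p ranged from 0.041 to 0.96 and from 0.019 to 0.87 over the 19 alternatives.

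The transcript rows show which forms of the 8 genes were present. Of 51675 transcripts tested, 70 belong to these genes. In the mock comparison 46 of 70 passed the limma test (background 44.7%), 35 lower and 11 higher in PANC-1. In the 8 construct and interaction comparisons 0 passed (limma). At an unadjusted p of 0.05, for which no background was counted, 1 to 6 of 70 did. The background of the adjusted test in AsPC-1 was 0.0968% for TAp63 against mock, 0.298% for deltaNp63 against mock and 0.0116% for TAp63 against deltaNp63. The same 3 shares in PANC-1 were 0.0135%, 0.0194% and 0.0213%, and the interactions had 0 for TAp63 and 0.0735% for deltaNp63. Shares of a gene's TPM depend on how shared sequence was divided among overlapping transcripts, so they are given as descriptions without tests.

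LAMA3 has a short form, the alpha 3A chain of laminin-332, that starts inside the gene, and a long form, alpha 3B, with a larger amino-terminal part. In AsPC-1 the transcripts from the short form's start (chr18:23873020-23873045) held 88.1 to 96.9% of LAMA3 TPM, and those from the long form's start (chr18:23689453-23689684) held 0.332 to 0.916%, or 1.22 to 2.16 TPM. LAMA3-201, the main short transcript, had a mock difference of −7.60 (adjusted p 3.8e-08, limma), and LAMA3-210, with no defined coding sequence, of −3.63 (adjusted p 0.0036, limma). In PANC-1, where all LAMA3 rows together were at most 0.509 TPM, the short start held 5.99 to 20.6% and the long start 48.3 to 93.9%. In TPM these were 0.0244 to 0.0756 from the short start and 0.178 to 0.373 from the long start, so both were near 0. The 2 AP-1 matches printed above lie before the short start, and their part in its level was not tested.

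LAMB3 was almost wholly 1 transcript, LAMB3-201, with 96.3% of the gene's TPM, 753 to 1757 TPM in AsPC-1. Its mock difference was −8.84 (SE 0.36; adjusted p 2.2e-07, limma). ITGB4 was divided among ITGB4-203 (60.3% of its TPM; −6.09), ITGB4-206 (21.0%; −4.78), the 2-exon retained-intron row ITGB4-205 (6.77%; −3.30) and ITGB4-201 (6.70%; −5.20), and all 4 passed the limma test in the mock comparison. The COL17A1 rows COL17A1-203 (−6.57), COL17A1-206 (−3.66) and COL17A1-205 (−2.73) also fell. CD151-201 (63.2% of CD151 TPM) and CD151-203 (24.2%) were higher in PANC-1 by 0.76 and 1.17.

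ITGA6 has alternative cytoplasmic tails, A and B, that come from including or skipping 1 exon near its 3′ end. The coding ends are shown because the lines differed in their proportion. The A end is read from the 130-base alternative exon and stops inside it. The B end is read from the following exon when the alternative exon is skipped. Both runs are 5′ to 3′ on the + strand of hg38 with GENCODE 44 exons, end in the stop codon, which is in capitals, and lie at chr2:172501772-172501879 (A) and chr2:172504091-172504252 (B).
ITGA6 A end: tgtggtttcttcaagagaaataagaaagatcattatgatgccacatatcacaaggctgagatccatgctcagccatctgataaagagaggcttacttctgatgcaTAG
ITGA6 B end: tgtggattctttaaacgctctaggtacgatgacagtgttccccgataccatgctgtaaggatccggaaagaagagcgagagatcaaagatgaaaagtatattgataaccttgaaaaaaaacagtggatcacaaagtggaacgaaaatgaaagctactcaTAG

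The A end held 46.3 to 54.7% of ITGA6 TPM in AsPC-1 and 73.0 to 83.5% in PANC-1, and the B end held 42.3 to 50.5% and 14.2 to 23.6%. In TPM, the A end was 139 to 218 in AsPC-1 and 38.4 to 42.5 in PANC-1, and the B end was 114 to 239 against 6.54 to 13.6. Between the mock groups the A-end transcript ITGA6-201 differed by −1.81 (adjusted p 6.4e-05, limma) and the B-end transcript ITGA6-202 by −3.15 (adjusted p 8.8e-05, limma). The shares of the lines did not overlap for either end, and the difference between the estimates of these transcripts was not tested.

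**Figure D5:**
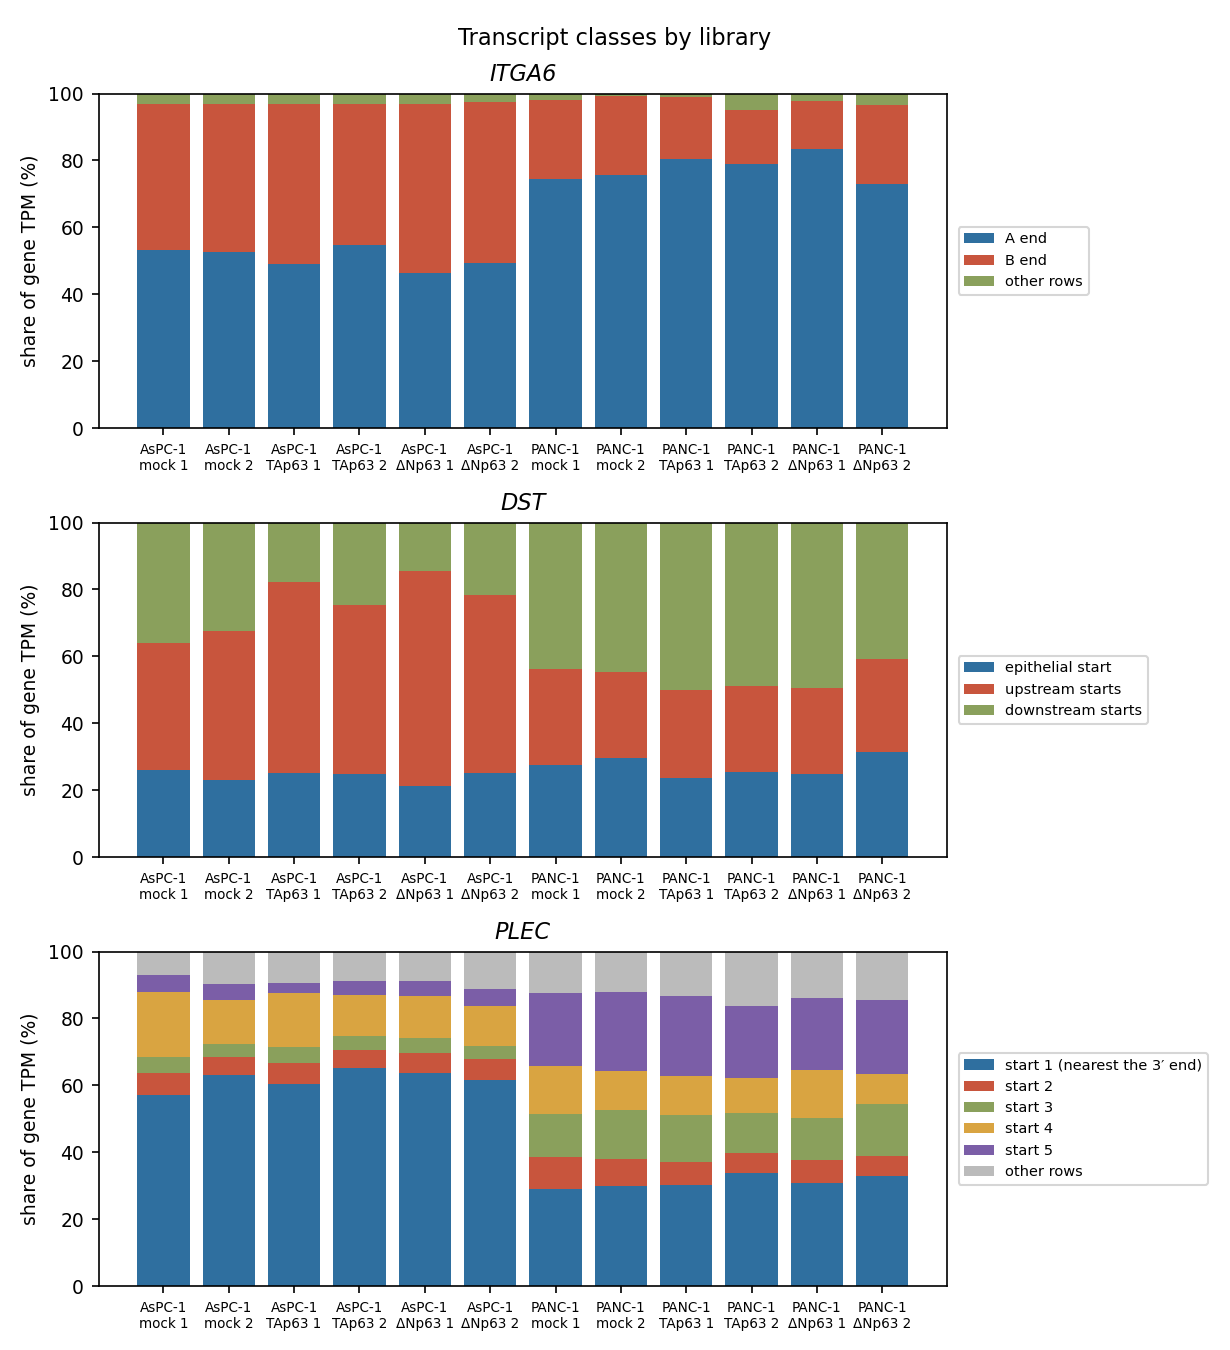
Share of the gene's TPM (vertical axis, %) held by each transcript class in each of the 12 libraries, for the ends of ITGA6 (top), the starts of DST relative to its epithelial start (middle) and the annotated starts of PLEC, numbered from the 3′ end of the gene (bottom). The bars show more B end in AsPC-1 (42.3 to 50.5%), more downstream DST starts in PANC-1 (40.8 to 50.1%) and a larger first PLEC start in AsPC-1 (57.2 to 65.1%).

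PLEC is transcribed from several first exons that give plectin different amino termini. PLEC-202, which starts at chr8:143939597, held 57.2 to 65.1% of PLEC TPM in AsPC-1 and 29.1 to 33.8% in PANC-1, and its mock difference was −2.62 (adjusted p 6.4e-05, limma). PLEC-205 (−1.86) and PLEC-203 (−0.99) were also lower in PANC-1, and both passed the limma test. PLEC-208, from the most upstream of the starts (chr8:143976734), held 3.18 to 5.08% in AsPC-1 and 21.5 to 24.0% in PANC-1. Its level did not pass the test (0.51, SE 0.25, adjusted p 0.14, limma), nor did that of PLEC-201 (0.01, adjusted p 0.97, limma). The lower PLEC level of PANC-1 was thus unevenly spread over its starts.

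DST gives the hemidesmosomal BPAG1e from a start in the middle of the gene (chr6:56642788-56642996). The promoter window printed above lies before the start of DST-205. The start of DST-201, at chr6:56642996, is inside that window. The 4 transcripts with a start in chr6:56642788-56642996 held 21.2 to 26.0% of DST TPM in AsPC-1 and 23.7 to 31.3% in PANC-1. Most of this was the 84-exon DST-201, with 4.54 to 5.94 TPM in AsPC-1 and 6.61 to 8.79 TPM in PANC-1 (0.41, SE 0.17, adjusted p 0.079, limma). The 24-exon DST-205, which has the layout of BPAG1e and was singled out after its values were seen, was 0.407 to 0.503 TPM in AsPC-1 and 1.87 to 2.25 TPM in PANC-1 (1.03, SE 0.16, adjusted p 0.00089, limma). The row with the layout of BPAG1e was thus low in both lines and higher in PANC-1. Of the other named rows, DST-203 (0.97) and DST-209 (1.10) were higher in PANC-1 and the retained-intron rows DST-231 (−1.40) and DST-216 (−0.78) lower by the limma test, while DST-206 (0.58, adjusted p 0.077) and DST-228 (0.32, adjusted p 0.39) did not pass it. DST-209 and DST-216 did not pass without single mock libraries, with adjusted p (limma) up to 0.051 and 0.098.

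Few other genes of the laminin and basement membrane system passed the test for a construct. Of 7 tested genes among 9 other laminin chains, 7 of 7 other laminin receptors, 5 of 11 basement membrane partners, 3 of 5 keratins and plaque partners and 6 of 7 genes of processing and turnover, 3 genes in all passed any construct or interaction comparison (limma), each in AsPC-1 with deltaNp63 and each lower. LAMB1, the beta 1 chain, was 29.7 and 29.8 TPM in mock and 18.3 and 23.4 TPM with deltaNp63 (−0.50, adjusted p 0.039, limma). DAG1, dystroglycan, was 29.4 and 26.4 TPM in mock and 13.4 and 18.9 TPM with deltaNp63 (−0.77, adjusted p 0.032, limma). AGRN, agrin, was 120 and 139 TPM in mock and 97.9 and 97.4 TPM with deltaNp63 (−0.40, adjusted p 0.048, limma). The background for lower genes in that comparison was 6.51%. The 3 calls were lost under 14, 12 and 15 of 21 alternatives, with adjusted p (limma) up to 0.36. The values stayed below 0 under all 21, and with each library's median centred they were −0.29, −0.56 and −0.19. The list medians in that comparison were −0.01 for the laminin chains, 0.12 for the receptors, 0 for the basement membrane partners, −0.39 for the keratins and −0.20 for processing and turnover, beside −0.12 over all genes.

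Between the mock groups, the other chains and receptors did not follow LAMA3 and LAMB3 as a whole. The counts that follow are of genes that passed the limma test. Of all tested genes 27.9% passed as lower and 44.6% as higher in PANC-1, so passing alone says little about a list. Of the 7 other laminin chains 3 were lower and 2 higher in PANC-1 (median −0.26), and of the 7 receptors 3 were lower and 3 higher (median −0.56). LAMC3, the gamma 3 chain, was listed at 0 in AsPC-1 and at 9.96 to 14.3 TPM in PANC-1 (3.67), and LAMA2, a chain of muscle laminins, was lower in PANC-1 (−2.09). LAMA4, the alpha 4 chain of vessel wall laminins, was 21.3 to 29.1 TPM in AsPC-1 and 3.54 to 5.90 TPM in PANC-1 (−2.09). Among the receptors, syndecans SDC1 (−2.11) and SDC4 (−1.63) were lower and integrin ITGA3 (1.43) higher. Of the 5 basement membrane partners 3 were higher and 0 lower (median 1.27): COL7A1, which forms the anchoring fibrils under hemidesmosomes, was 0.223 to 0.879 TPM in AsPC-1 and 8.21 to 13.0 TPM in PANC-1 (2.84), with COL4A5 (1.85) and nidogen NID1 (1.27). All 3 keratins and plaque partners were lower (median −1.13): KRT8 (−1.14), KRT18 (−1.13) and ERBIN (−0.76), a protein that binds integrin beta 4 and BP230. Of the 6 genes of processing and turnover 4 were lower and 2 higher (median −1.06). FERMT1 (kindlin-1), an integrin activator of epithelial cells, was 128 to 171 TPM in AsPC-1 and 0.872 to 1.43 TPM in PANC-1 (−6.15), BMP1, a protease that cleaves laminin chains, was 33.8 to 39.2 TPM against 4.95 to 6.05 TPM (−2.55), and EGFR was lower by the same test (−1.12). All the differences named in these sentences passed the limma test.

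The genes most like LAMB3 and ITGB4 were found after subtracting each line's mean from log2(TPM + 1), over 12 libraries and 10220 genes with a mean of at least 5 TPM. For LAMB3 these were KDM5B (Pearson's r 0.972), AMOTL2 (0.971) and OGDH (0.957). LAMB3 ranged from 787 to 1820 TPM in AsPC-1 and from 1.71 to 2.40 TPM in PANC-1, so its coefficients reflect mainly the AsPC-1 libraries. For ITGB4 the most alike genes were GALNT11 (0.902), MROH6 (0.884) and SSBP3 (0.883). These are descriptions over libraries that share the same scaling, and no test was made.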

How the data were processed

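Poly(A) RNA was sequenced in 12 libraries, 2 per group, from column-extracted total RNA with a stranded mRNA library kit, per the labels' protocols. The authors deposited 1 table of TPM values, relative transcript abundances, for 153329 Ensembl transcripts; the quantifier, its strand setting, the annotation and the genome build are not given in the sources used here. Because TPM keeps no depth, the precision of single values is unknown and no count model was fitted. Transcript identifiers were matched to GENCODE 44, which placed 139819 rows (91.2%, holding 89.6 to 90.5% of the TPM of a library) in 39099 genes; 13510 rows did not match.

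Gene TPM values were summed, and the 14767 genes that reached 1 TPM in 2 or more of 12 libraries were tested on log2(TPM + 1) with limma 3.58.1 in R 4.3.3: a mean per group over all 12 libraries, moderated variances with a mean trend, and Benjamini-Hochberg adjustment over all tested genes within a comparison, two-sided, with a threshold of 0.05. The 51675 transcripts passing the same filter were fitted alike. The fit was tested on simulated data. With 2 libraries per group, the p-values measure the spread between libraries of a group. That spread was pooled over all 6 groups, so a gene has the same SE for a construct against mock in AsPC-1 and in PANC-1. Motifs were searched with Python 3.11.15.

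Named were all 8 genes, their transcripts with a mean of at least 5% of the gene's TPM, genes of 5 related lists that passed a construct or interaction comparison, and the 3 of each list with the largest mock difference; 1 gene of these lists is not reported here and was left out of its list's counts and medians. The genes, lists and tests were chosen with earlier results of these data known. Alternatives were other scalings, filters and pseudocounts, no variance trend, fits on fewer groups, a replicate block, and leaving out each library; those for the related genes and transcripts were chosen after seeing the data.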

Additional observations from a re-analysis of the deposited data

How the results depend on the processing

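No difference of the 8 genes that passed the test changed its direction under any alternative run. Over 72 differences and 1472 alternative values, 80 changed sign, each past the threshold in neither fit, with sizes of at most 0.33 as reported and at most 0.31 under the alternative, in log2(TPM + 1). Leaving out 1 library at a time, the number of the 8 genes passing the limma test for deltaNp63 against mock in AsPC-1 ranged from 0 to 3, that for the deltaNp63 interaction from 0 to 2, and that of their transcripts for deltaNp63 against mock in AsPC-1 from 0 to 3, with the highest counts without AsPC-1 deltaNp63 replicate 2, where 27.5% and 14.9% of all genes and 3.62% of all transcripts passed; the cause was not tested. The DST difference between the mock groups lost the threshold with quantile normalization (0.33, adjusted p 0.053, limma), median centring (0.28, adjusted p 0.12), without AsPC-1 mock replicate 1 (0.44, adjusted p 0.053) and without PANC-1 mock replicate 2 (0.37, adjusted p 0.088). With a replicate block it was 0.40 (adjusted p 0.062, limma); the block left 7 of 8 genes past the threshold between the mock groups, and 0 of 8 in each construct comparison, as without it. Replicate numbers were not used as pairs in the main fit. The correlations of same-numbered deviations ran from −0.09 to 0.29 between AsPC-1 groups and from −0.04 to 0.11 between PANC-1 groups. With 2 libraries per group they cannot show whether same-numbered libraries were prepared together. The number of all genes passing was less stable: over 21 alternatives it ran from 0 to 4057 (main 1055) for deltaNp63 and from 0 to 412 (main 94) for TAp63 against mock in AsPC-1. The depth behind low TPM values, such as those of LAMA3 and COL17A1 in PANC-1, is unknown.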

Other observations

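Markers of other cells were measured with the same table. LUM (lumican), on the fibroblast list, was 177 to 288 TPM in the 6 AsPC-1 libraries and at most 0.0523 TPM in PANC-1, while the fibroblast genes COL3A1 (at most 0.190 TPM) and DCN (at most 0.998 TPM) were near 0 in both lines. CD68 was 90.8 to 126 TPM in AsPC-1 and 255 to 288 TPM in PANC-1, with the leukocyte genes PTPRC and CD3E at most 0.0552 TPM. CD68 passed the limma test as lower in AsPC-1 with deltaNp63 (−0.39, adjusted p 0.036). The summed level of 3 mesenchymal markers was 2014 to 2378 TPM in AsPC-1 and 4335 to 4985 TPM in PANC-1, and that of 6 epithelial markers was 7142 to 10565 TPM against 3500.4 to 3869 TPM. KRT7 was the 1 marker of these 6 with more in all 6 PANC-1 libraries (13.7 to 17.5 TPM against 9.24 to 13.1 TPM in AsPC-1); its mock difference was 0.12 (adjusted p 0.37, limma).

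Within DST, the rows that start upstream of the epithelial start held 37.9 and 44.6% of the TPM in the AsPC-1 mock libraries and 50.4 to 64.4% in the 4 AsPC-1 libraries with a construct, against 25.5 to 28.5% in PANC-1. Much of this class in AsPC-1 was the retained-intron row DST-231, with 4.08 to 7.79 TPM where the class held 9.40 to 17.2 TPM. The shares of DST-231 alone overlapped, with 16.4 and 20.6% in AsPC-1 mock and 19.0 to 29.2% with a construct. The rows that start downstream held 14.4 to 36.1% in AsPC-1. These shares were not tested, and no DST transcript passed the limma test in a construct comparison.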
